A study of Homo sapiens with 40 samples.

Results

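The 39 genes described here carry cells from G1 into S phase and copy the DNA. They were chosen by name from the table of gene counts, in which gene identifiers were matched to symbols through GENCODE release 44, and no measured value is part of the rule. The list was, however, drawn up with earlier results of these data known. All 39 were found among the 58395 genes listed, and all 39 were among the 28922 genes tested.

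HEK293A is a human embryonic kidney line. Wild type (WT) cells and 1 clone in which PARP1 was knocked out with Cas9 (KO) were sequenced as bulk RNA, with 4 libraries in each of 10 groups. Each genotype was left untreated, given 0.1% DMSO, or given topotecan (Tpc, a TOP1 poison), OL9-119 (described by the study as an inhibitor of the repair enzyme TDP1) at 5 µM, or both, all in 0.1% DMSO for 5 to 5.5 h. The dose of Tpc was 100 nM in WT cells and 50 nM in KO cells, so a difference between genotypes in the response to Tpc is also a difference in dose, and these cannot be told apart. The knockout was a single clone, so the effect of the deletion and that of the clone cannot be told apart either. The sample titles name the KO cells a PARP1 knockout, whereas 1 label of the same samples calls them a knockdown.

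In G1, cyclin E with its kinase partner inactivates the RB protein, which frees E2F factors to switch on the genes of S phase. Origins are first licensed, when ORC1, CDC6 and CDT1 place the MCM2 to MCM7 ring on DNA. The ring is then activated by MCM10, CDC45 and the GINS complex, and the polymerases, the clamp PCNA and its RFC loader follow. HEK293 cells carry the adenovirus E1A protein, which binds RB, so the RB brake on E2F is already loosened in this line.

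E2F factors recognise short motifs near the start sites of many S phase genes. Versions of 8 letters, namely TTTGGCGC, TTTCCCGC, TTTGCCGC and TTTCGCGC, were searched on both strands in RefSeq windows running from 250 bases before to 50 bases after the start site (build GRCh38.p14). Matches to different versions may overlap each other. A promoter was found for 34 of the 39 members, and 22 of these 34 (64.7%) held at least 1 match, against 3.31% of all 35116 windows and 5.44% of 15303 protein-coding genes. By role, a match was found in 6 of 7 licensing genes, 3 of 4 G1/S control genes, 5 of 6 genes of fork protection, histone mRNA and chromatin, 3 of 5 helicase activation genes, 4 of 8 fork synthesis genes and 1 of 4 nucleotide supply genes. No window was listed for CCNE2, E2F8, MCM4, MCM5 and GINS4. The genes of G2/M and mitosis stood near the background, with a match in 2 of 35. Other lists stood above it. A match was found in 14 of 43 other replication genes (32.6%) and in 4 of 23 other G1/S regulators (17.4%). For p53 targets it was 3 of 14 (21.4%). A raised share was thus not particular to the members. The 31 matches of the members lay between 187 bases before and 8 bases after the start, with a median of 42 bases before it, and 19 of them lay between 60 bases before and 50 bases after it. A match describes the letters only.

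The windows below are from 12 members that passed the test in at least 1 comparison or, for E2F1, encode the factor itself. CLSPN and UHRF1 also passed and held a match but are not shown. MCM10, ORC1, SLBP, RRM2 and RFC5 passed and held none. In KO against WT the median log2 difference was 0.31 with a match and 0.30 without untreated, and 0.44 and 0.37 in DMSO. With Tpc in WT it was 0.35 and 0.18. Whether a match bears on the change was not tested. Each is 30 bases long, is written on the strand of the gene, and has the match in capitals.
E2F1, chr20:33686387-33686416, minus strand: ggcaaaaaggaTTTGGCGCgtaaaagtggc
E2F2, chr1:23531257-23531286, minus strand: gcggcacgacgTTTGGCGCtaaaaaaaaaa
CDC25A, chr3:48188443-48188472, minus strand: ggtggattccgTTTGGCGCcaactaggaaa
CDC6, chr17:40287875-40287904, plus strand: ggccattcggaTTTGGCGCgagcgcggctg
CDT1, chr16:88803743-88803772, plus strand: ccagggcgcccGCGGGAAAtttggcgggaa
MCM2, chr3:127598402-127598431, plus strand: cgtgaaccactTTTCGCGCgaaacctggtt
MCM7, chr7:100101388-100101417, minus strand: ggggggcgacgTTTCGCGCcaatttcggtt
GINS2, chr16:85688967-85688996, minus strand: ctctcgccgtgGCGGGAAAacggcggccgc
PCNA, chr20:5126663-5126692, minus strand: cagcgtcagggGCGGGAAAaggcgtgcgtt
RFC3, chr13:33818083-33818112, plus strand: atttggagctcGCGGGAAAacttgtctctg
DTL, chr1:212035729-212035758, plus strand: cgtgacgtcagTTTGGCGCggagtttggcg
CDCA7, chr2:173354796-173354825, plus strand: tgtgtcccaacGCGGGAAAgacagcccgag
The same 8 letters, TTTGGCGC, stood in E2F1, E2F2, CDC25A, CDC6 and DTL, and the reverse complement of TTTCCCGC stood in CDT1, GINS2, PCNA, RFC3 and CDCA7. In CDC6 and MCM2 the match lay just past the start site.

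**Figure D1:**
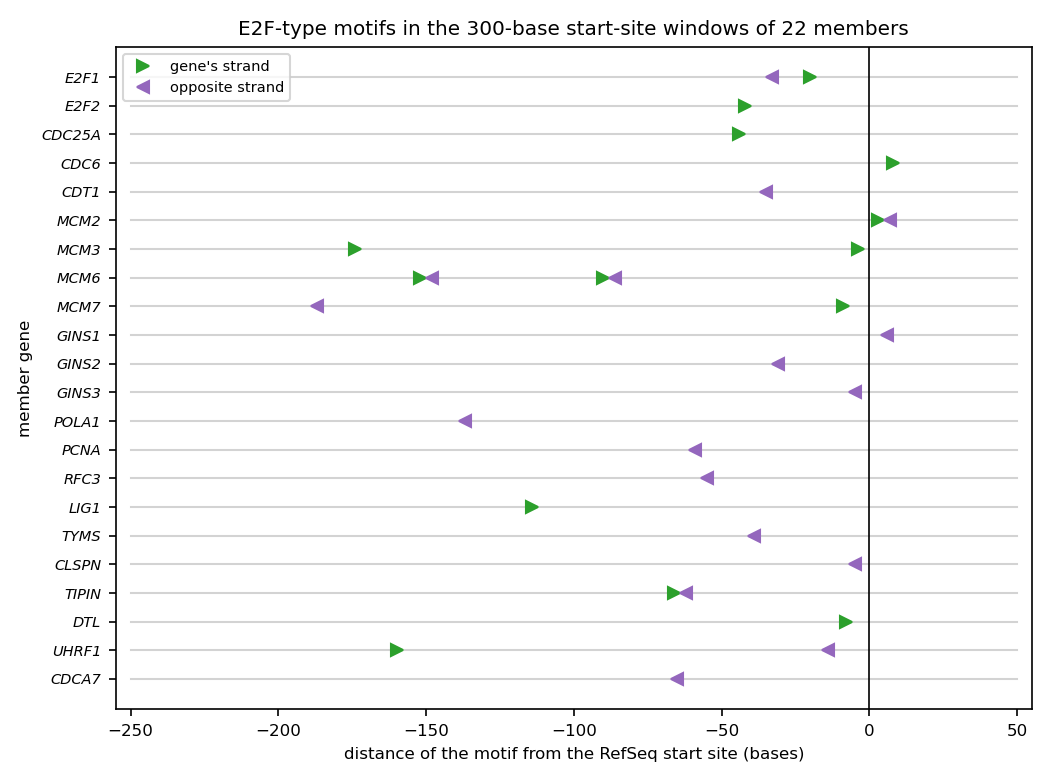
Position of each E2F-type match in the windows of the 22 members that held one, in bases from the RefSeq start site (x axis, 0 at the start), with the direction of the arrow giving the strand. Of the 31 symbols, 19 lie between 60 bases before and 50 bases after the start, and the 4 matches of MCM6 stand farther out as overlapping pairs.

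Library totals ran from 3455043 to 20379777 counted reads. Values are given as CPM, read counts scaled to library size with TMM factors, and differences as log2 fold changes of edgeR's quasi-likelihood fit over all 40 libraries, with a Benjamini-Hochberg adjusted p below 0.01 over all genes as the call. PARP1 stood between 737 and 887 CPM in the 20 WT libraries and between 30.4 and 46.6 CPM in the 20 KO libraries, without overlap. The difference of its mean log2 level, KO minus WT, was -4.52 in the untreated cells and -4.37 in DMSO (exact two-sided permutation test, n = 4 and 4, p = 0.0286 each, the smallest value 70 divisions allow). All 10 markers of HEK293 cells were counted in every library, and 4 of the 10 markers of other cell types (blood, endothelium, fibroblasts, liver, epithelium, muscle) stayed under 1 CPM in every library. The summed CPM of the latter was 44.5 in WT and 33.2 in KO, mostly from the collagen genes. After thinning to an equal depth, between 15522 and 20593 genes were detected in WT libraries and between 17969 and 21545 in KO libraries. Within the WT groups this number varied, and it was lowest in WT DMSO (median 17396). With this number as a term in the fit, 17 members passed in KO against WT untreated and 17 in DMSO, but CDT1 (adjusted p = 0.016) and MCM7 (0.034) were lost untreated, and GINS2 (0.022), UHRF1 (0.053) and E2F8 (0.071) in DMSO. PCNA, PRIM1, RFC4, RRM2 and TK1 were gained untreated, and MCM3, PRIM1 and RFC4 in DMSO. The log2 difference in DMSO was then 0.64 for PCNA (adjusted p = 3.2e-07) and 0.52 for RRM2 (adjusted p = 0.00011). The labels call the 4 libraries of a group biological replicates while the study's text also speaks of technical ones, so the p values measure the spread between these libraries. In bulk RNA, fewer cells in S phase and less RNA per cell cannot be told apart.

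Per kb of exon, the members spanned a wide range. In WT DMSO, PCNA was highest at 341 CPM per kb, followed by TYMS (125.5), RRM1 (123.5) and MCM3 (109.7). GINS3 was lowest at 5.94 CPM per kb, next to CCNE1 (6.59) and E2F8 (7.89). TYMS and RRM1 did not differ beyond the spread of their 4 libraries, and neither did GINS3 and CCNE1. The lowest count of any member in any library was 66, in CCNE1, so all members were counted well above 0. The exons of 17 members overlapped a gene on the opposite strand, and those of 3 overlapped a gene on the same strand. Whether strand was used in counting is not given in the sources used here. The overlap may therefore affect the counts of GINS2 (with GSE1), GINS4 (with GPAT4-AS1), DTL (with INTS7), RFC5 (with WSB2), CCNE2 (with INTS8) and MCM7 (with AP4M1 and MIR93), in a direction that was not tested.

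The comparison of KO with WT cells asked how the members differ without PARP1. In untreated cells 13 members were higher and 1 lower in KO, and 25 did not pass the test. Over all genes 5.97% were called higher and 5.74% lower. In DMSO 15 members were higher and 2 lower, against 6.67% and 5.75% of all genes. Many genes in this background, here and below, were measured less precisely (median SE untreated 0.815 over all genes, 0.133 for the members). Calls in either direction took in 35.9% of the members untreated and 43.6% in DMSO. The shares were 37.7% and 35.85% for other replication genes and 44.8% and 34.5% for other G1/S regulators. For G2/M genes they were 40% and 45%, and for p53 targets 55.6% and 66.7%. High shares were thus not particular to the members. The median log2 difference of the members was 0.31 untreated and 0.39 in DMSO, while the median over all genes was 0.17 and 0.19. The groups did not overlap for 19 members above and 4 below in untreated cells, and for 17 above and 3 below in DMSO, against 11.3%, 8.37%, 12.3% and 7.76% of all genes. These comparisons share no library, and 12 of the genes called higher were the same, which is 92.3% of the 13 and 80% of the 15. The 12 were CDC25A, CDC6, CDT1, DTL, E2F2, E2F8, MCM10, MCM2, MCM7, ORC1, RFC3 and SLBP.

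**Figure D2:**
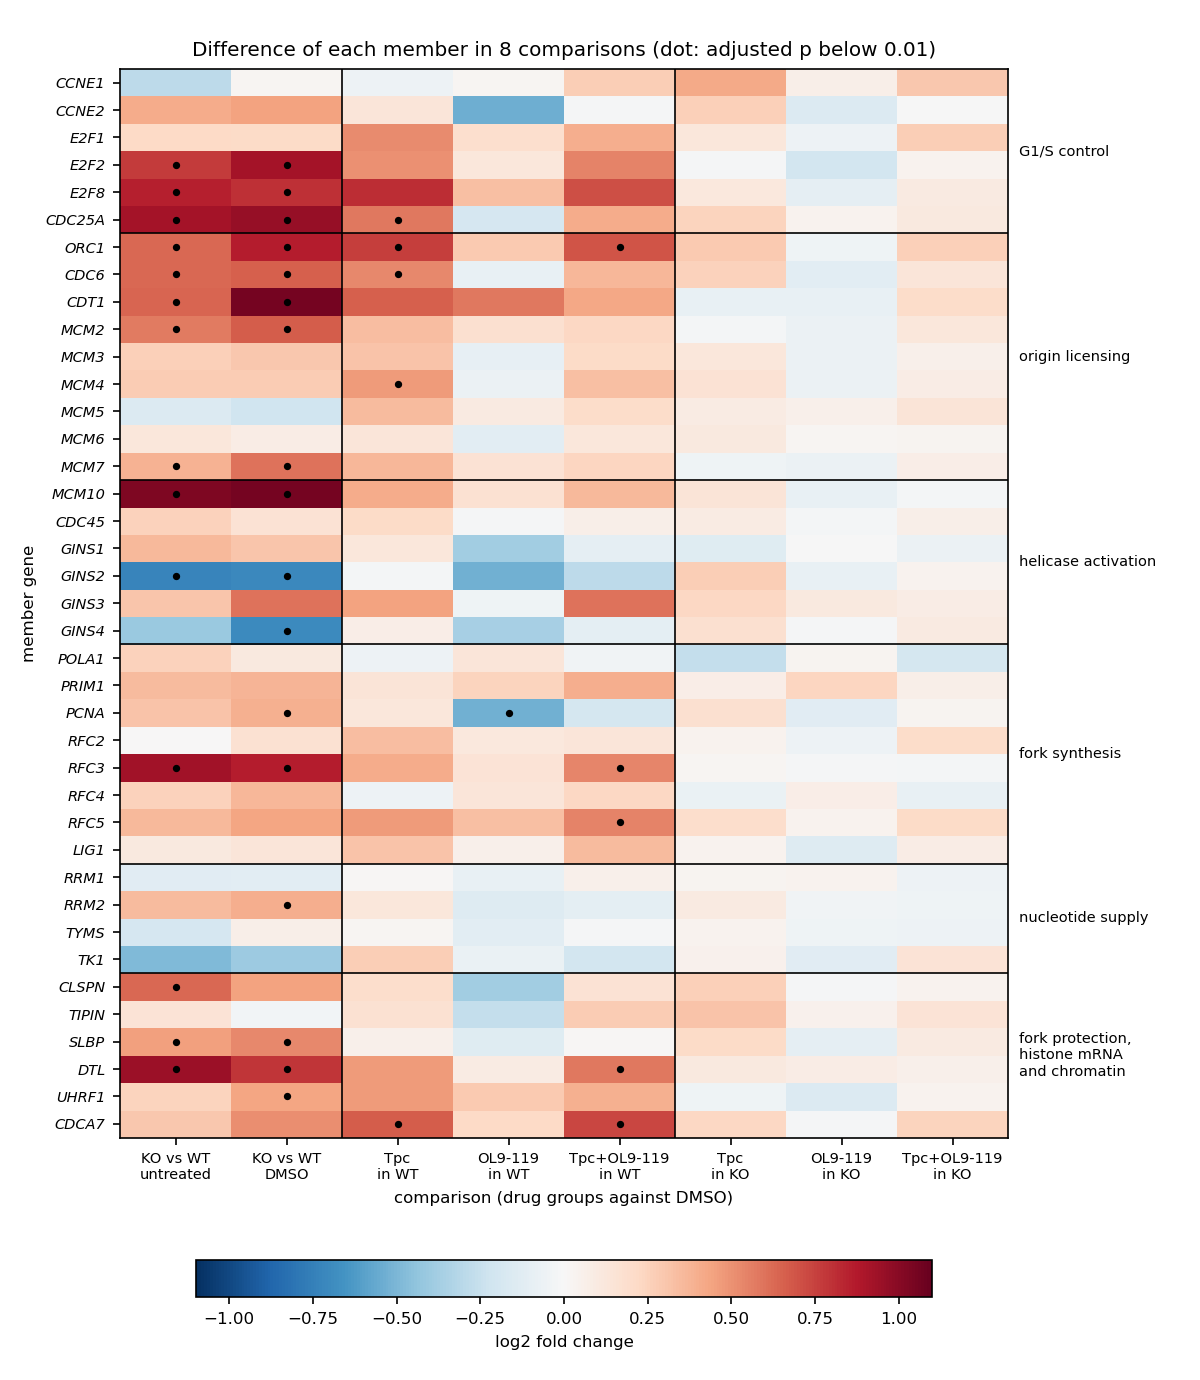
Log2 fold change (colour, red higher and blue lower) of the 39 members (rows, by role) in 8 comparisons (columns), with a dot where the adjusted p was below 0.01. Both KO columns hold most of the dots (14 and 17), the Tpc and Tpc+OL9-119 columns of WT hold 5 each, and the 3 drug columns of KO hold none.

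Among the genes of G1/S control, 3 of 6 were higher in KO in both comparisons. CDC25A, the phosphatase that activates the cyclin E kinase, stood at 100, 68.4, 77.8 and 75.6 CPM in the untreated WT libraries and at 159, 156, 148 and 145 CPM in the untreated KO libraries. All 4 KO libraries lay above all 4 WT libraries, and the log2 difference was 0.92 ± 0.12 (SE, adjusted p = 6.2e-08). In DMSO it was 0.96 ± 0.12 (adjusted p = 2e-08). E2F2, an activating E2F factor, was higher by 0.77 (adjusted p = 4.2e-05) and 0.92 (adjusted p = 1.7e-06). E2F8, a repressing E2F factor that is itself an E2F target, was higher by 0.86 (adjusted p = 0.00096) and 0.80 (adjusted p = 0.0019). E2F1, the best known activator, was at 106 ± 9.60 CPM (SD, n = 4) in untreated KO and did not pass the test, with log2 differences of 0.22 (adjusted p = 0.26) and 0.21 (adjusted p = 0.27). CCNE2, a cyclin E, likewise did not pass at 0.41 (adjusted p = 0.12) and 0.44 (adjusted p = 0.082), and CCNE1, the other cyclin E, was at -0.29 and 0.02.

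Origin licensing held the most called members, 5 of 9 in each comparison and none lower. CDC6, which loads the MCM ring together with CDT1, stood at 169, 168.5, 172 and 166 CPM in untreated WT and at 254, 274, 254 and 262 CPM in untreated KO. The groups did not overlap, with log2 differences of 0.63 ± 0.11 untreated (adjusted p = 6.4e-06) and 0.66 ± 0.11 in DMSO (adjusted p = 2.7e-06). CDT1, the licensing factor that is destroyed in S phase, stood at 103.7, 74.1, 96 and 68.7 CPM in untreated WT and at 109.9, 134, 151 and 138 CPM in untreated KO, with no overlap. In DMSO the means were 67.7 ± 17.3 CPM in WT and 140.6 ± 17.9 CPM in KO, again with no overlap. Its log2 difference was 1.05 ± 0.16 in DMSO (adjusted p = 5.7e-07) and 0.64 ± 0.16 untreated (adjusted p = 0.0017). ORC1, the largest subunit of the origin recognition complex, was higher by 0.63 (adjusted p = 0.00074) and 0.87 (adjusted p = 4.9e-06). The subunits of the MCM ring did not move as 1 group. MCM2 was higher by 0.57 (adjusted p = 0.00034) and 0.67 (adjusted p = 3.4e-05), and MCM7 by 0.38 (adjusted p = 0.0056) and 0.59 (adjusted p = 1.4e-05). MCM3 (0.26 and 0.30), MCM4 (0.28 and 0.28), MCM6 (0.12 and 0.08) and MCM5 (-0.15 and -0.22) did not pass.

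Helicase activation was divided. MCM10, which helps to open the ring, showed the highest log2 difference of all members, 1.02 ± 0.14 untreated (adjusted p = 1.3e-07) and 1.06 ± 0.14 in DMSO (adjusted p = 5.6e-08). Its 4 untreated WT libraries stood at 44.3, 51.9, 56.9 and 59.8 CPM and the KO libraries at 113.5, 106, 104.4 and 109 CPM, with means of 53.2 and 108 CPM and no overlap. The GINS complex has 4 subunits in equal numbers, and its genes went in different directions. GINS2 stood at 92.9, 74.2, 69.8 and 68.6 CPM in untreated WT and at 34.8, 50.7, 51.2 and 47.6 CPM in untreated KO. It was lower in every KO library, with log2 differences of -0.72 ± 0.16 (adjusted p = 0.00045) and -0.71 ± 0.16 (adjusted p = 0.00051). GINS4 was at -0.41 untreated (adjusted p = 0.023) and passed in DMSO at -0.70 ± 0.13 (adjusted p = 4.8e-05). GINS1 (0.35 and 0.30) and GINS3 (0.31 and 0.60) had positive differences that did not pass, and CDC45, the partner of GINS at the helicase, was at 0.25 and 0.16.

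Of the 8 fork synthesis genes 1 was higher untreated and 2 in DMSO, against 5.97% and 6.67% of all genes. All 8 had a positive difference in both, as did 16415 of all 28922 genes untreated and 16619 in DMSO. RFC3, a small subunit of the clamp loader, stood at 108, 110, 95.8 and 130 CPM in untreated WT and at 240, 203, 192 and 208 CPM in untreated KO. The groups did not overlap, with log2 differences of 0.92 ± 0.11 (adjusted p = 6.4e-09) and 0.87 ± 0.11 (adjusted p = 3.1e-08). The other loader subunits were closer to WT, at 0.00 and 0.16 for RFC2, 0.25 and 0.36 for RFC4, and 0.36 and 0.43 for RFC5, none of which passed. PCNA, the sliding clamp, was at 0.32 untreated (adjusted p = 0.035) and passed in DMSO at 0.39 ± 0.11 (adjusted p = 0.0074). LIG1, which seals the lagging strand, and POLA1 and PRIM1, the catalytic subunits of DNA polymerase alpha and of its primase, did not pass.

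Of the 4 nucleotide supply genes none was called untreated and 1 was higher in DMSO, with medians of -0.15 and -0.02. RRM2, the regulated subunit of ribonucleotide reductase, was at 0.35 untreated (adjusted p = 0.013) and passed in DMSO at 0.40 ± 0.10 (adjusted p = 0.0034). RRM1, its partner subunit, was at -0.12 and -0.11, and TYMS, which makes thymidylate, at -0.19 and 0.07. TK1, the thymidine salvage kinase, was at -0.48 (adjusted p = 0.013) and -0.40 (adjusted p = 0.045). Of the last role, 3 of 6 members were higher in each comparison. DTL, the adaptor that directs CDT1 to destruction, stood at 87.2, 88.1, 79.6 and 84.9 CPM in untreated WT and at 181, 146, 162 and 162 CPM in untreated KO. Its log2 differences were 0.94 ± 0.13 (adjusted p = 6.3e-08) and 0.78 ± 0.13 (adjusted p = 2.7e-06), without overlap. SLBP, which binds the stem loop of histone mRNA, was higher by 0.45 (adjusted p = 0.0012) and 0.53 (adjusted p = 0.00015). CLSPN, which carries the checkpoint signal from stalled forks, passed untreated at 0.63 (adjusted p = 0.0006) and was at 0.44 in DMSO, while UHRF1, which brings DNMT1 to new DNA, passed in DMSO at 0.44 (adjusted p = 0.0023) and was at 0.25 untreated.

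Some of these calls were lost when 1 library was left out. In DMSO, E2F8 was lost without KO DMSO replicate 3 (adjusted p = 0.015) or WT DMSO replicate 3 (adjusted p = 0.02), GINS2 without WT DMSO replicate 3 (adjusted p = 0.011), RRM2 without KO DMSO replicate 1 or 3 or WT DMSO replicate 4 (adjusted p of 0.012 to 0.019), PCNA without any of 5 libraries, namely KO DMSO replicates 3 and 4 and WT DMSO replicates 1, 2 and 4 (0.012 to 0.051), and UHRF1 without KO DMSO replicate 1 or 4 or WT DMSO replicate 1 or 2 (0.01 to 0.015). In untreated cells, CDT1 was lost without KO replicate 3 or WT replicate 2 or 4 (0.01 to 0.013), E2F8 without WT replicate 1 or 3 (0.012 each), SLBP without WT replicate 4 (0.011), and MCM7 without any of 6 libraries, namely KO replicates 2, 3 and 4 and WT replicates 2, 3 and 4 (0.011 to 0.037). With only the 8 libraries compared in the fit, E2F8, GINS2, GINS4, PCNA, RRM2, SLBP and UHRF1 were lost in DMSO (adjusted p of 0.011 to 0.081), which left 10 of the 17, and E2F8, MCM7 and SLBP untreated (0.017 to 0.029). PCNA in DMSO was also lost with RLE scaling and with the prefix of the library name as a term. Without the filter on low counts PCNA, RRM2 and UHRF1 were lost in DMSO and MCM7 untreated, and CDCA7 was gained in DMSO and TK1 untreated. DESeq2 lost none and called 19 untreated and 21 in DMSO. It gained GINS1, GINS4, MCM4, RRM2 and TK1 untreated, and CDCA7, MCM3, MCM4 and RFC5 in DMSO. GINS4 and TK1 had negative differences in the main fit. TK1 also passed untreated with the filterByExpr filter, with library complexity as a term and with only the 8 compared libraries. When gene length and GC content entered the fit, the PCNA difference in DMSO was 0.09 (adjusted p = 0.69) and that of RRM2 0.14 (adjusted p = 0.47), and the median over the members was 0.12 untreated and 0.13 in DMSO, where that over all genes was 0.03 and 0.00. SLBP was lost in both (adjusted p = 0.063 and 0.064) and CLSPN untreated (adjusted p = 0.1). The split over all genes then moved from 1727 higher and 1659 lower to 1218 and 2293 untreated, and from 1930 and 1662 to 1314 and 2764 in DMSO.

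**Figure D3:**
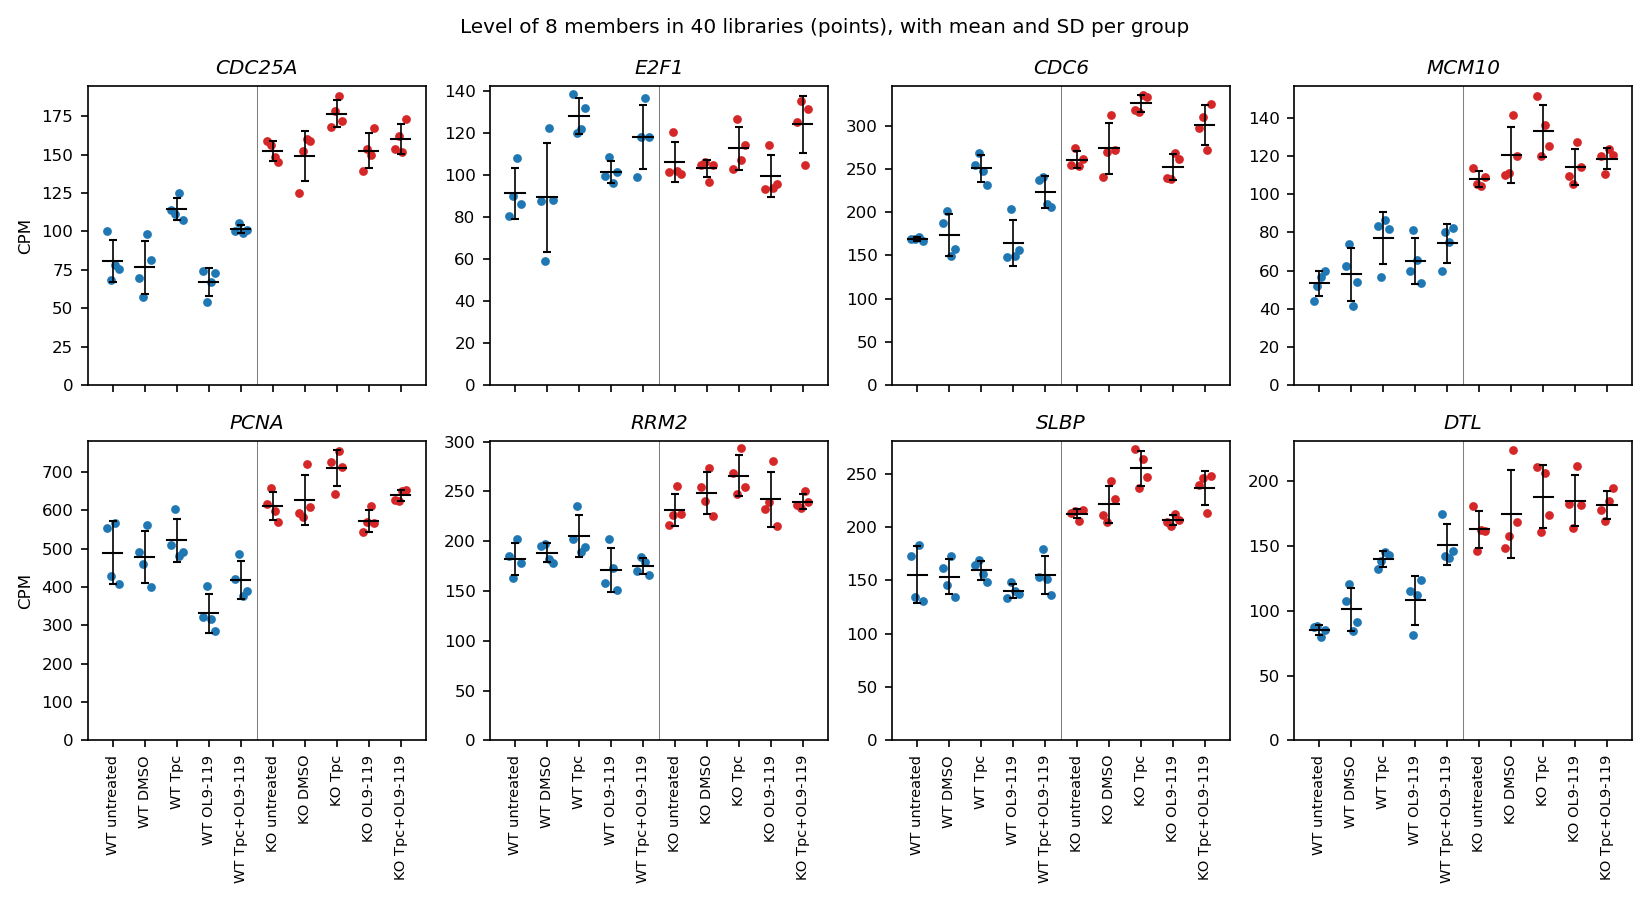
CPM of 8 members (panels) in the 10 groups, WT in blue and KO in red, with 1 point per library, the mean as a line and the SD as a bar, on axes that start at 0. CDC25A, MCM10 and SLBP stand higher in every KO group than in the WT DMSO group, and PCNA in WT is lowest with OL9-119 (mean 331 CPM).

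The vehicle alone was compared with no treatment in each genotype. No member passed in WT or KO by edgeR or by DESeq2, and 0.0% of all genes were called in either by edgeR. At an unadjusted p below 0.05 there were 4 of 39 members in WT and 0 of 39 in KO. In WT the highest was CLSPN (0.29 ± 0.14) and the lowest CCNE1 (-0.40 ± 0.23), and in KO they were CCNE2 (0.18 ± 0.18) and PRIM1 (-0.14 ± 0.18). Of the 8 members followed in every comparison, DTL was at 0.25 in WT and 0.10 in KO, MCM10 at 0.13 and 0.16, CCNE2 at 0.15 and 0.18, and RRM2, CDC6, SLBP, E2F1 and PCNA between -0.04 and 0.10 in both. The drug groups below were set against the DMSO libraries of their genotype, so all drug comparisons of a genotype share the same 4 controls.

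The comparison of Tpc with DMSO in WT cells asked how the members respond to the poison. Tpc raised 5 members and lowered none, against 0.629% of all genes called higher and 0.356% called lower. The median log2 difference was 0.32 for the members and 0.00 for all genes, and 35 of the 39 had a positive difference. All 4 Tpc libraries stood above all 4 DMSO libraries for 15 members, against 3.19% of all genes. The 5 called members were ORC1, CDCA7, CDC25A, CDC6 and MCM4, 3 of them licensing genes.

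ORC1 stood at 38, 38.7, 26 and 43.5 CPM in WT DMSO and at 67.9, 46.6, 67.2 and 66 CPM with Tpc, a log2 difference of 0.76 ± 0.15 (adjusted p = 0.00054). CDC6 stood at 188, 201, 150 and 157 CPM in DMSO and at 255, 269, 248 and 232 CPM with Tpc, a difference of 0.53 ± 0.11 (adjusted p = 0.0011). Neither gene overlapped between the groups. CDC25A rose from 76.7 ± 17.3 to 114.5 ± 7.37 CPM (0.58 ± 0.12, adjusted p = 0.0028) and MCM4, a ring subunit, from 330 ± 47.6 to 456 ± 22.9 CPM (0.47 ± 0.10, adjusted p = 0.0027). CDCA7, which recruits a remodeller to chromatin, stood at 73.6, 77.5, 32.7 and 66.8 CPM in DMSO and at 106.5, 103.6, 95.3 and 92.45 CPM with Tpc (0.66 ± 0.16, adjusted p = 0.0083). Replicate 3 of WT DMSO was the lowest by far for CDCA7, and without it the adjusted p was 0.088.

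E2F8 had the highest difference with Tpc, 0.81 ± 0.20, and did not pass (adjusted p = 0.013). Close behind the threshold were CDT1 at 0.66, E2F1 at 0.52 (adjusted p = 0.02), UHRF1 at 0.46 and DTL at 0.47 (adjusted p = 0.033). MCM10 was at 0.41 (adjusted p = 0.13), CCNE2 at 0.14, PCNA at 0.12, RRM2 at 0.12 and SLBP at 0.05, none of which passed. The lowest was POLA1, the catalytic subunit of DNA polymerase alpha, at -0.06 ± 0.13. By role the median was 0.51 in G1/S control, 0.36 in licensing, 0.33 in fork protection, histone mRNA and chromatin, 0.23 in fork synthesis, 0.17 in helicase activation and 0.07 in nucleotide supply. These calls depended on the fit. With only the 8 libraries compared in the fit no member passed (adjusted p of 0.12 to 0.29 for the 5), DESeq2 called 10, and leaving out 1 library gave 3 (WT Tpc replicate 1 or replicate 3) to 8 (WT DMSO replicate 4). CDC25A was lost without WT DMSO replicate 1 or 2 or WT Tpc replicate 3 (adjusted p of 0.016 to 0.04), MCM4 without WT DMSO replicate 1 or 3 or WT Tpc replicate 1 (0.014 to 0.022), and CDCA7 also without any 1 of the 4 WT Tpc libraries (0.015 to 0.04). ORC1 and CDC6 passed without any 1 library. Against untreated WT cells in place of DMSO, CDC25A (adjusted p = 0.014) and CDCA7 (adjusted p = 0.055) were lost and DTL and E2F8 were gained. With length and GC content in the fit CDC25A, CDC6 and MCM4 were lost (adjusted p of 0.039 to 0.041), CDT1 and E2F8 were gained, the median of the members was 0.21, and the share of higher calls over all genes was 43.1% in place of 63.9%.

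OL9-119 in WT cells lowered PCNA and raised no member, against 0.488% of all genes called higher and 0.667% called lower. PCNA stood at 493, 460, 562 and 400 CPM in DMSO and at 321, 403, 316 and 285 CPM with OL9-119. The ranges overlapped only through the highest OL9-119 library and the lowest DMSO library, and the log2 difference was -0.53 ± 0.11 (adjusted p = 0.0019). The median over the members was 0.02, with 20 positive and 19 negative. The highest was CDT1 at 0.58 ± 0.16 (adjusted p = 0.028), whose groups did not overlap, and CCNE2 was at -0.53 ± 0.19 (adjusted p = 0.11). GINS2 was at -0.53, GINS1 at -0.38 and GINS4 at -0.36, none of which passed. E2F1 (0.18), MCM10 (0.16), DTL (0.09), CDC6 (-0.08), SLBP (-0.14) and RRM2 (-0.14) did not pass. PCNA was lost without WT DMSO replicate 3 (adjusted p = 0.02), without WT OL9-119 replicate 4 (adjusted p = 0.02) and with only the libraries compared in the fit (adjusted p = 0.16). The count of called members was 0 without that OL9-119 library and 2 without WT DMSO replicate 4. With length and GC content in the fit the median of the members was -0.10, and the share of higher calls over all genes was 22% in place of 42.2%.

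Tpc with OL9-119 in WT cells raised 5 members and lowered none, against 1.84% of all genes called higher and 1.54% called lower. The median was 0.23, with 30 of 39 positive, and 10 members stood wholly above DMSO, against 3.56% of all genes. CDCA7 rose to 104.3 ± 8.96 CPM (0.73 ± 0.16, adjusted p = 0.0012), ORC1 to 58.9 ± 6.01 CPM (0.69 ± 0.15, adjusted p = 0.00099) and DTL to 151 ± 15.7 CPM (0.58 ± 0.13, adjusted p = 0.0016). The loader subunits RFC3 and RFC5 rose by 0.54 ± 0.11 (adjusted p = 0.001) and 0.54 ± 0.14 (adjusted p = 0.0075). CDC6 was at 0.36 (adjusted p = 0.024), E2F1 at 0.40 (adjusted p = 0.053), MCM10 at 0.35, SLBP at 0.02, CCNE2 at -0.02, RRM2 at -0.11 and PCNA at -0.20. GINS2 was lowest at -0.28 ± 0.16. Without WT DMSO replicate 3 none of these 5 passed (adjusted p of 0.013 to 0.084) and 2 others did, namely CDC25A and E2F1. That library held the lowest value of its group for 16 of the 39 members and the highest for 13. DTL was also lost without WT Tpc+OL9-119 replicate 1 (adjusted p = 0.017), and RFC5 without replicate 1, 3 or 4 of that group (0.016 to 0.038). With only the libraries compared in the fit none passed (adjusted p of 0.078 to 0.26), and DESeq2 called 10. Against untreated WT cells RFC5 was lost (adjusted p = 0.043) and CDC6, E2F2 and E2F8 were gained. With length and GC content in the fit RFC3 was lost (adjusted p = 0.011), and the share of higher calls over all genes was 42.7% in place of 54.4%.

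Set directly against Tpc alone, the combination called no member in WT, where 0.18% of all genes were called, and none in KO, where 0.0% were. By DESeq2 none passed in either, and 3 and 0 members had an unadjusted p below 0.05. In WT the lowest was TK1 at -0.47 ± 0.15 (95% interval -0.76 to -0.18) and the highest CCNE1 at 0.33 ± 0.23. PCNA was at -0.32 ± 0.11 (adjusted p = 0.27). In KO the range ran from -0.27 (CCNE2) to 0.28 (CDT1). Whether both drugs together did more or less than adding their separate log2 effects was also tested in WT, and it passed for no member by either tool, with 2 members at an unadjusted p below 0.05, and for 0.00346% of all genes. CDT1 was lowest in that test at -0.81 ± 0.22 (adjusted p = 0.23) and CCNE2 highest at 0.38 ± 0.26.

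In KO cells no member passed with any drug by edgeR or DESeq2. Over all genes 0.0% were called with Tpc, 0.00346% with OL9-119 and 0.0% with the combination, and 4, 0 and 1 members had an unadjusted p below 0.05. With Tpc the median was 0.11, 31 of 39 were positive, 5 members stood wholly above DMSO and 1 below, against 1.01% and 1.61% of all genes, and the differences ran from -0.26 ± 0.13 (POLA1) to 0.42 ± 0.22 (CCNE1). CDC6 stood at 241, 270, 313 and 272 CPM in KO DMSO and at 318, 316, 336 and 333 CPM with Tpc, which did not overlap, at 0.25 ± 0.11. PCNA (0.18), SLBP (0.21), CCNE2 (0.27), MCM10 (0.14), E2F1 (0.13), DTL (0.11) and RRM2 (0.10) were all positive and did not pass. With OL9-119 the median was -0.04 and the range -0.20 (E2F2) to 0.24 (PRIM1), and PCNA was at -0.13 ± 0.11. With the combination the median was 0.07 and the range -0.19 (POLA1) to 0.29 (CCNE1), with E2F1 at 0.27, CDC6 at 0.14 and the other 6 of the 8 members followed throughout between -0.05 and 0.10.

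The responses of the genotypes were then compared with each other. No member differed by edgeR for Tpc, OL9-119 or the combination, where 0.173%, 0.1% and 0.432% of all genes were called, and 11, 4 and 7 members had an unadjusted p below 0.05. DESeq2 called 1 member, RFC3 for the combination, with a smaller response in KO, where the edgeR difference was -0.56 (adjusted p = 0.078). For Tpc the median of KO minus WT was -0.25, with 29 of 39 negative and all 9 licensing genes among them, while the median over all genes was -0.07 and 15836 of 28922 genes were negative. With length and GC content in the fit the median of the members was -0.07 for Tpc and that over all genes 0.05. The lowest was CDT1 at -0.74 ± 0.22 (95% interval -1.18 to -0.31, adjusted p = 0.2) and the highest CCNE1 at 0.48 ± 0.32. For OL9-119 CDT1 was also lowest at -0.66 ± 0.22, GINS2 was highest at 0.45 ± 0.22 and PCNA was at 0.40 ± 0.16 (adjusted p = 0.49). The Tpc and OL9-119 comparisons and the additivity test above share the WT DMSO libraries. CDT1 averaged 67.7 CPM there and 85.6 CPM in untreated WT, so its low values are not independent results. For the combination the range ran from -0.61 ± 0.28 (E2F8) to 0.35 ± 0.21 (TK1). The median for OL9-119 was -0.01, and 0.11 with length and GC content in the fit, where the share of higher calls over all genes was 40.4% in place of 18% for Tpc and 30.8% in place of 20.7% for OL9-119. The intervals of single genes are wide, and a p that misses the threshold does not show that the genotypes respond alike.

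The mean log2 level of the 39 members, set to 0 in WT DMSO, was 0.32 ± 0.034 (SD, n = 4) with Tpc in WT, 0.26 ± 0.038 with the combination and 0.01 ± 0.026 with OL9-119. In KO it was 0.35 ± 0.019 untreated, 0.37 ± 0.049 in DMSO, 0.48 ± 0.034 with Tpc, 0.34 ± 0.031 with OL9-119 and 0.45 ± 0.056 with the combination. Untreated KO cells and Tpc-treated WT cells lay close to each other on this scale, but not on that of the G2/M genes below. With length and GC content in the fit, the median of the members was 0.12 for KO against WT untreated and 0.21 for Tpc in WT. Of the 40 genes of G2/M and mitosis, 23 were lower with Tpc in WT and 24 with the combination, and none higher. Over all genes 0.356% and 1.54% were called lower. KIF20A, a mitotic kinesin, fell by 1.73 with Tpc (adjusted p = 1.4e-13) and PLK1, the mitotic kinase, fell by 1.67 (adjusted p = 1.4e-10). With OL9-119 in WT 2 of 40 were lower, PTTG1 and CCNB1, against 0.667% of all genes. The mean of the 40 in WT was -0.75 ± 0.012 with Tpc. In KO it was -0.28 ± 0.026 untreated, -0.35 ± 0.091 in DMSO and -0.53 ± 0.053 with Tpc. In KO against WT 14 of the 40 were lower and 2 higher untreated, and 18 were lower and none higher in DMSO. Over all genes 5.74% were lower and 5.97% higher untreated, and 5.75% and 6.67% in DMSO. Of the 40, CENPA, the centromeric histone, was at -1.58 and -2.08. This list held genes whose response differed between genotypes, 6 for Tpc and 11 for the combination, all with a smaller fall in KO, such as CCNB1 (1.03 ± 0.17, adjusted p = 0.00018). Of all 28922 genes, 9 were called with a positive difference (KO minus WT) and 41 with a negative one for Tpc. For the combination these were 35 and 90. Tpc doses differed here too.

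**Figure D4:**
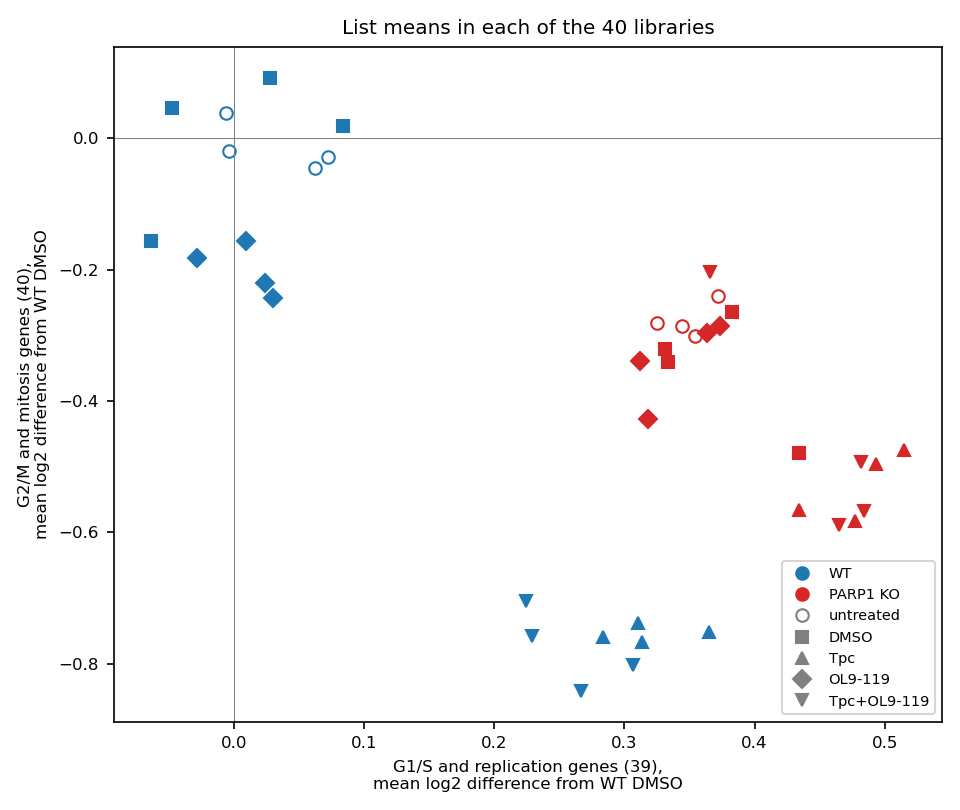
Mean log2 difference from WT DMSO of the 39 members (x axis) against that of 40 G2/M and mitosis genes (y axis), with 1 symbol per library, colour for genotype and shape for treatment. Tpc and Tpc+OL9-119 libraries of WT lie to the right and far down (-0.70 to -0.84), and the KO libraries lie to the right (0.31 to 0.52) and less far down.

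The remaining machinery of replication showed both directions in KO. Of 53 other replication genes, 13 were higher and 7 lower untreated, and 13 higher and 6 lower in DMSO. The shares over all genes were 5.97% and 5.74% untreated, and 6.67% and 5.75% in DMSO. The maintenance methyltransferase DNMT1 (1.22 and 1.15), the chromatin assembly subunit CHAF1A (0.86 and 0.99), the loader subunit DSCC1 (1.07 and 1.20) and MTBP, which takes part in origin firing (1.49 and 1.44), were higher in both. The polymerase subunits POLE4 (-1.44 and -1.54), POLA2 (-0.94 and -0.99) and POLD2 (-0.68 and -0.72) were lower in both, as was RNASEH2C (-1.15 and -0.95). Of 29 other G1/S regulators 8 were higher and 5 lower untreated, and 7 higher and 3 lower in DMSO, with the repressor E2F7 (1.41 and 1.33) and the APC/C inhibitor FBXO5 (0.72 and 1.00) up and CDKN2C (-1.12 and -1.01) and CCNA2 (-0.83 and -0.87) down. With Tpc in WT, 1 of the 53 rose, POLD3 (0.66, adjusted p = 0.00018), and CCNA2 (-0.83) and CDKN2C (-0.65) fell among the 29. With the combination POLD3, USP1, DSCC1 and DNMT1 rose, as did E2F7 and LIN54, and CCNA2 and CDKN2C fell. With OL9-119, FEN1 (-0.60), the flap endonuclease that binds PCNA, and the histone chaperone NASP (-0.44) fell, and USP1 (0.52) rose. Over all genes 0.629% were called higher and 0.356% lower with Tpc, 1.84% and 1.54% with the combination, and 0.488% and 0.667% with OL9-119. None of either list passed with a drug in KO by edgeR, and at most 1 gene of each list had an unadjusted p below 0.05 with any drug.

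Targets of p53, 18 genes with CDKN1A shared with the list above, were 9 higher and 1 lower in untreated KO and 10 higher and 2 lower in DMSO. The shares over all genes were 5.97% and 5.74% untreated, and 6.67% and 5.75% in DMSO. GADD45A was at 1.61 and 1.73. With Tpc in WT GADD45A (1.39) and AEN (0.57) rose, with OL9-119 SESN2 (1.08) rose, and with both all 3 did. Over all genes 0.629% were called higher with Tpc, 0.488% with OL9-119 and 1.84% with both. The responses of GADD45A to Tpc (-1.26, KO minus WT) and to the combination (-1.31), and that of SESN2 to OL9-119 (-0.95), differed between genotypes. Of all genes, 0.173% were called in this way for Tpc, 0.432% for the combination and 0.1% for OL9-119. CDKN1A, the p21 inhibitor of the cyclin E kinase, was higher in KO by 0.43 and 0.40 and passed in no drug comparison.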

How the data were processed

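Human HEK293A RNA was sequenced in 40 libraries. The deposited values are raw read counts per gene, 1 column per library, which the authors made by aligning reads to hg38 with STAR 2.7.8, with FastQC 0.11.9 and Picard 2.26.6 for quality control (versions from the submitters' processing notes). The strand setting of the counting is not given in the sources used here. No column belonged to another sample (0).

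Of 58395 genes, 57754 identifiers matched GENCODE release 44, and 28922 genes with a summed count of at least 10 in the fit were tested. A quasi-likelihood model with 10 groups over all 40 libraries was fitted with edgeR 4.0.16 (R 4.3.3) with TMM scaling, and 16 contrasts were tested with adjusted p below 0.01 as the call. DESeq2 1.42.0 was an alternative. PARP1 was also tested with an exact permutation test (scipy 1.17.1) on log2(CPM + 0.5), the scale of the list means too. On simulated counts for Tpc against DMSO in WT over 28922 genes, 66% of 100 genes changed by 2-fold were called, 22% of 100 genes changed by 1.5-fold, and none of 27887 unchanged genes. These counts were drawn from a common mean level per gene and the trend of the dispersion. They held no spread particular to a gene and no differences in complexity, so the shares need not hold for the real libraries.

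Fold changes are those of the named members: CCNE2, E2F1, CDC6, MCM10, PCNA, RRM2, SLBP and DTL in each comparison, up to 8 called members by size in each direction, the most extreme member where none was called, and up to 4 called genes of each other list. Other members named near a threshold or beside their complex were chosen after their values were seen. The members, the other lists and the comparisons were chosen with earlier results of these data known. Total counts ran from 3455043 to 20379777, and a member's median SE was 0.13 on the log2 scale, up to 0.23. Alternatives were other scalings and filters, DESeq2, fewer libraries, a replicate block, the prefix of the library name, untreated controls, length and GC offsets, and, chosen after seeing the data, library complexity as a term. Intervals are the fold change plus or minus a normal 95% multiple of its SE. The start-site windows are those of RefSeq.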

Additional observations from a re-analysis of the deposited data

Results flagged for a closer look

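Each of 9 genes and the mean of the members was tested in the 10 groups of 4 for a library whose gap to the others was unusually large against the whole range (Dixon's test at the 95% level). Of 100 such sets 11 passed, and chance alone passes about 1 in 20. CCNE2 stood at 66.3 CPM in untreated KO replicate 1, where the others were 51.1 to 51.8. E2F1 stood at 120.6 CPM in untreated KO replicate 2 (others 100.7 to 102.1), at 96.9 in KO DMSO replicate 3 (others 105 to 106) and at 114.3 in KO OL9-119 replicate 2 (others 93.5 to 96). CDC6 stood at 204 CPM in WT OL9-119 replicate 2 (others 148 to 156) and MCM10 at 56.9 CPM in WT Tpc replicate 2 (others 81.6 to 86.6). DTL stood at 174.5 CPM in WT Tpc+OL9-119 replicate 1 (others 141 to 146), the library without which its call for that group was lost. PARP1 stood at 737 CPM in WT DMSO replicate 3 (others 834 to 850), at 762 in WT Tpc replicate 2 (others 799 to 805) and at 43.9 in untreated KO replicate 1 (others 33.5 to 34.8). The mean log2 level of the 39 members was 0.37 in KO Tpc+OL9-119 replicate 3 (others 0.46 to 0.48).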

How the results depend on the processing

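Over 725 recomputed values of single called members, 631 kept their direction and call, 94 kept the direction only and 0 turned. With only the compared libraries in the fit, the calls fell to 10 for KO against WT in DMSO and to 0 for Tpc, OL9-119 and the combination in WT. That fit holds 8 libraries. DESeq2 gave 10 for Tpc, 10 for the combination and 1 for the genotype difference of the combination. For KO against WT it gave 19 untreated and 21 in DMSO. Without the low-count filter, and with length and GC offsets, OL9-119 gave 2. Library complexity as a term, chosen after seeing the data, gave 9 for the combination and 1 for the combination against Tpc in WT (PCNA, lower). The cause was not tested. Leaving out 1 library gave 3 to 8 for Tpc, 0 to 2 for OL9-119, 2 to 7 for the combination, 11 to 15 for KO against WT untreated and 14 to 18 in DMSO. PARP1 stayed between -4.61 and -4.48 untreated and -4.46 and -4.25 in DMSO. The untreated comparator, the library prefix, RLE and filterByExpr changed no count by over 1.5 times, though single calls were lost and gained. Same-numbered libraries of a genotype had mean correlations of -0.03 to 0.33, and all 10 pairs were above 0.1 in WT replicate 4 (0.12 to 0.48) and KO replicate 2 (0.19 to 0.52) but in no other number, so the numbers were not taken to pair the samples. A replicate block gave 15, 17, 7, 1 and 5 calls for KO untreated, KO in DMSO, Tpc, OL9-119 and the combination in WT. It lost no called member, and gained E2F8 and UHRF1 for Tpc and RRM2 for KO untreated.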
